A study of Rattus norvegicus with 18 samples.

Results

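The comparison of aged rats fed under lifelong caloric restriction (CR) with aged rats fed ad libitum (AL) is reported here, as 12 of the 18 RNA-seq libraries of the gastrocnemius series. The members were the 6 libraries labelled as old with CR and the 6 labelled as old with AL, and every gene was tested in 1 fit of these 12 libraries. All animals were male Brown Norway rats that ate AL until 2 months of age and were then housed singly. From then on the CR rats received 55% of the intake of the AL rats in a single daily ration, and both groups were killed at 28 months. The other 6 libraries, from young rats fed AL and killed at 6 months, give levels beside those of the aged groups and entered the scaling of the printed levels and 1 alternative fit. Food was given to CR rats at a fixed hour and was always present for AL rats, so that restriction and the timing of meals cannot be told apart.

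The gastrocnemius is a calf muscle built mainly of fast fibres, and it loses mass with age in rats. CR is known to slow that loss in rodents and to shift muscle metabolism towards the use of fat. The mitochondrial genome, transcribed in long stretches that are cut into ribosomal, messenger and transfer RNAs, serves the respiration on which muscle fibres depend. Bulk tissue was measured, so fewer cells of a type and less RNA per cell cannot be told apart. The table of counts carries Ensembl identifiers, for which the files hold no symbols. Genes are therefore described by position on Rnor_6.0, structure and level, and markers of muscle fibres and of other cell types were not analysed here.

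Libraries of the AL group held 17335401 to 23351719 counts and those of the CR group 20174316 to 27432767. On the log2 scale the mean was 0.23 higher in CR libraries (two-sided exact permutation test, p = 0.0455, adjusted p = 0.0909 over 6 measures). In 3 of the CR libraries the column name matched no single rat, and these are called by their library numbers, 8826, 8827 and 8828. In principal components of log2 CPM (counts per 1000000 counts), rat 8 of the AL group stood at 98.5 on the first component and library 8828 of the CR group at 65.1, with all others between -31.0 and -0.42. That component held 40.8% of the variance and did not follow the diet. On the second component, with 16.9% of the variance, 5 of the 6 AL libraries lay between -33.1 and -19.8 and the 6 CR libraries between 1.41 and 38.7. Rat 11, fed AL, lay among the CR libraries at 5.42. The main counts of calls and of groups that did not overlap are given with and without rat 8 and library 8828, and each called gene described singly was also called without both.

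**Figure D1:**
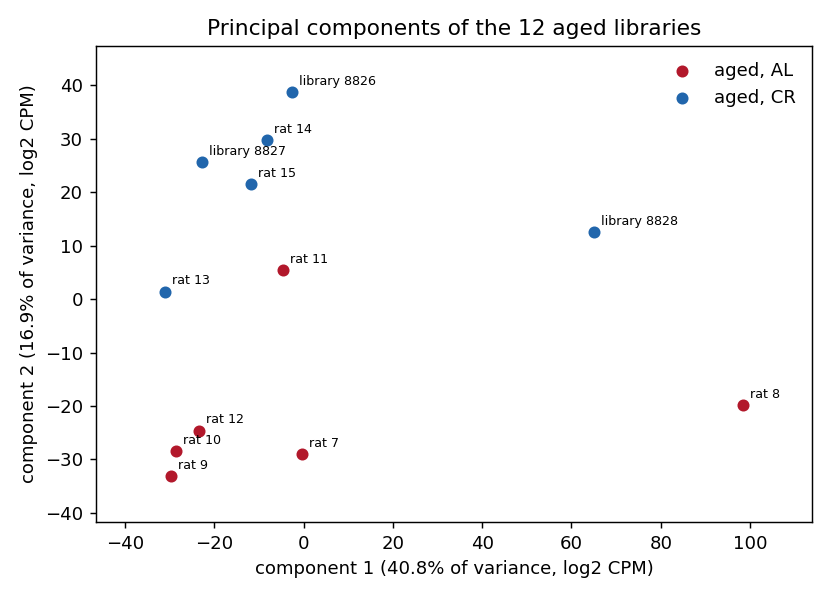
Each point is 1 aged library, placed by its first and second principal component of log2 CPM over the 14177 genes tested, red for AL and blue for CR. Rat 8 and library 8828 lie apart to the right at 98.5 and 65.1, and the second component orders the libraries by diet except for rat 11.

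Of 32883 genes in the table, 14177 passed the filter on low counts and were tested. Calls rest on edgeR's quasi-likelihood test and need a change of at least 1.5-fold with an adjusted p (Benjamini-Hochberg) of at most 0.05. By this rule 130 genes were called, 0.917% of those tested. Of these, 81 genes (0.571%) had higher levels under CR and 49 genes (0.346%) had lower levels. Higher genes had a median log2 fold change of 0.98 and lower genes one of -1.11, and the change was at least 2-fold in 40 and 30 of them. Over all genes tested the median log2 fold change was -0.02, with a median standard error of 0.19. A further 43 genes passed the adjusted p with a change under 1.5-fold, and 2060 genes (14.5%) had an unadjusted p under 0.05, 1073 of them higher and 987 lower.

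Without rat 8 and library 8828, the same test on 5 libraries against 5 called 526 of 14100 genes (3.73%), with 268 higher (1.90%) and 258 lower (1.83%). It called 127 of the 130 genes again in the same direction, in libraries that were also used to call them. The median standard error was 0.15. Rat 8 and library 8828 were picked from these same data, as the libraries that stood apart on the first component. The median log2 fold changes of the called genes were 0.86 and -1.004. DESeq2's Wald test on all 12 libraries, with its own filter on low counts, called 429 of 15051 genes with an adjusted p (2.85%), 233 higher and 196 lower, including 128 of the 130. The count was also higher without rat 8 alone (346), without library 8828 alone (219) and with all 18 libraries in the fit (202). Other changes lowered the count, with 40 calls without library 8826, 51 without rat 10, 54 without library 8827, 65 without rat 9 and 65 without rat 14. It was 0 without rat 14, library 8826 and library 8827 together (edgeR's quasi-likelihood test, 895 genes with an unadjusted p under 0.05).

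**Figure D2:**
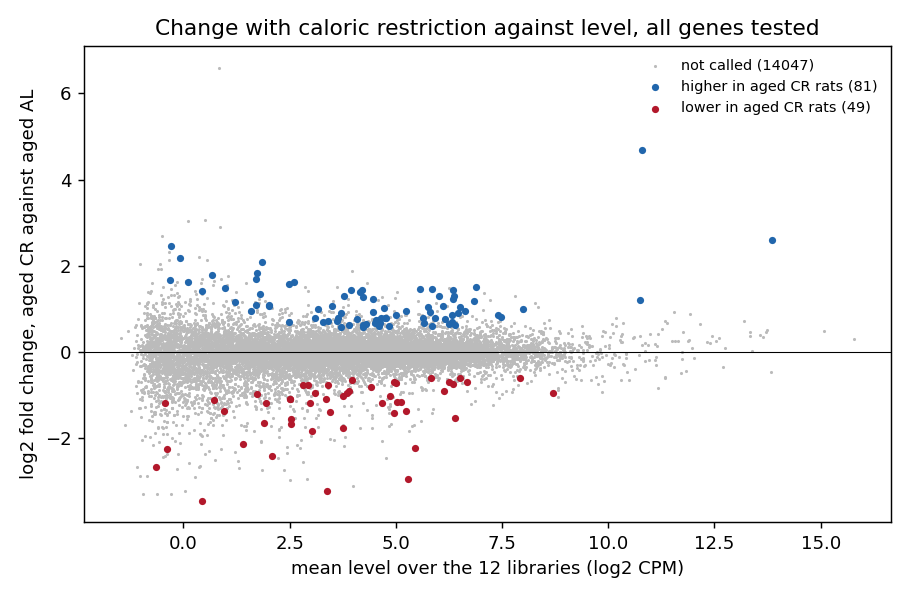
Each point is 1 of the 14177 genes tested, with its mean log2 CPM over the 12 libraries on the horizontal axis and its log2 fold change, aged CR against aged AL, on the vertical axis. The 81 genes called higher (blue) and 49 called lower (red) spread over the range of levels, and the 2 blue points at 4.69 and 2.60 above a level of 10 are mitochondrial.

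Among genes whose mean lay between 10 and 100 CPM, 50 were higher and 27 lower, 1.12% of the 6904 tested there. Under 1 CPM only 4 of 1141 genes were called (0.351%), and the median standard error was 0.40 against 0.14 between 10 and 100 CPM. Above 1000 CPM, 3 of 93 genes were called, all higher, of which 2 were mitochondrial. The third lies on chr13:71331052-71340229. It ranged from 524.2 (rat 7) to 1630 CPM in AL rats, with a median of 1307, and from 2159 to 3529 CPM in CR rats, with a median of 2557. Every CR library was above every AL library. Young rats had 1385 to 2262 CPM of this gene. Its log2 fold change was 1.22 (SE 0.25, adjusted p = 0.0410 in edgeR's quasi-likelihood test), and the call held in 3 of 12 fits that each left out 1 library, those without rat 7, rat 8 or library 8828. Without both rat 8 and library 8828 it was 1.02 (adjusted p = 0.0303).

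For 314 genes, 2.21% of those tested, the values of the 6 CR and the 6 AL libraries did not overlap, with 181 higher (1.28%) and 133 lower (0.938%) in CR rats. Of the 130 called genes 101 were among these, 67 higher and 34 lower. The other 29 were called although the ranges of the groups met. Without rat 8 and library 8828, the groups did not overlap for 1062 genes (7.53%). Values spread more among AL than among CR libraries. The median standard deviation over genes was 0.36 log2 units in AL and 0.26 in CR rats, and it was larger in AL rats for 72.1% of genes. Without rat 8 and library 8828 these values were 0.25 and 0.22, and 60.4% of genes had the larger deviation in AL rats.

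The 10 higher genes with the lowest p changed by 0.59 to 1.46 on the log2 scale, with standard errors of 0.08 to 0.19 and adjusted p from 0.00382 to 0.00783 (edgeR's quasi-likelihood test). The 10 lower genes had log2 changes of -2.23 to -0.74, with standard errors of 0.10 to 0.31 and adjusted p from 0.00583 to 0.0102. In all 20 of these genes the 2 groups did not overlap, which their choice by lowest p in this comparison favours. Among all 130 called genes 26 overlap another gene of the table (20.0%), 17 of them on the opposite strand (13.1%). Of all genes tested 22.5% and 14.8% do so. Here and below, overlap with another gene is that of whole spans, introns included.

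The gene with the lowest p of all was ENSRNOG00000006334, on the minus strand of chr15:19473373-19541815 with 21 exons and 2460 exonic bases. In aged rats fed AL it was at 13.7 CPM in rat 7, 17.1 in rat 12, 17.8 in rat 11, 19.7 in rat 8, 20.0 in rat 9 and 21.98 in rat 10. In aged CR rats the values were 34.8 CPM in rat 14, 36.2 in rat 15, 38.2 in rat 13, and 38.2, 38.3 and 35.8 in libraries 8826, 8827 and 8828. The CR libraries lay close together and all above the AL libraries, with a mean of 36.9 ± 1.51 CPM (SD, n = 6) against 18.4 ± 2.88 (SD, n = 6). Young rats fed AL had 16.4 ± 1.87 CPM (SD, n = 6). Between the aged groups the log2 fold change was 1.01 (SE 0.10, adjusted p = 0.00382 in edgeR's quasi-likelihood test).

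ENSRNOG00000020254, on the minus strand of chr9:98555169-98597359 with 23 exons, rose further. Aged rats fed AL had 16.8 to 41.4 CPM, with a median of 27.7, and aged CR rats had 67.2 to 87.4 CPM, with a median of 79.1. The highest AL value, in rat 12, was below the lowest CR value, in library 8828. Young rats fed AL had 30.6 ± 9.91 CPM (SD, n = 6). Its log2 fold change was 1.46 (SE 0.18, adjusted p = 0.00583 in edgeR's quasi-likelihood test).

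ENSRNOG00000014448, on the plus strand of chr1:178039063-178137465 with 21 exons, was lower in aged CR rats. Its AL values were 17.1 to 34.0 CPM with a median of 26.0, and it was at 5.08 to 10.9 CPM in aged CR rats, with a median of 6.73. Young rats fed AL had the highest level of the 3 groups, 63.3 ± 6.85 CPM (SD, n = 6), and no value of any group overlapped another. The log2 fold change between the aged groups was -1.77 (SE 0.21, adjusted p = 0.00583 in edgeR's quasi-likelihood test). ENSRNOG00000007591, on the plus strand of chr13:48745860-48766283 with 5 exons, had 6.62 to 9.69 CPM in aged AL rats and 3.30 to 4.35 CPM in aged CR rats. The aged groups did not overlap, while young rats, at 8.93 to 11.5 CPM, overlapped the aged AL rats. The log2 fold change was -1.08 (SE 0.13, adjusted p = 0.00583 in the same test). None of these 4 genes overlaps another gene of the table, and their calls held in each of the 12 fits that left out 1 library. Their choice by lowest p favours calls that hold.

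**Figure D3:**
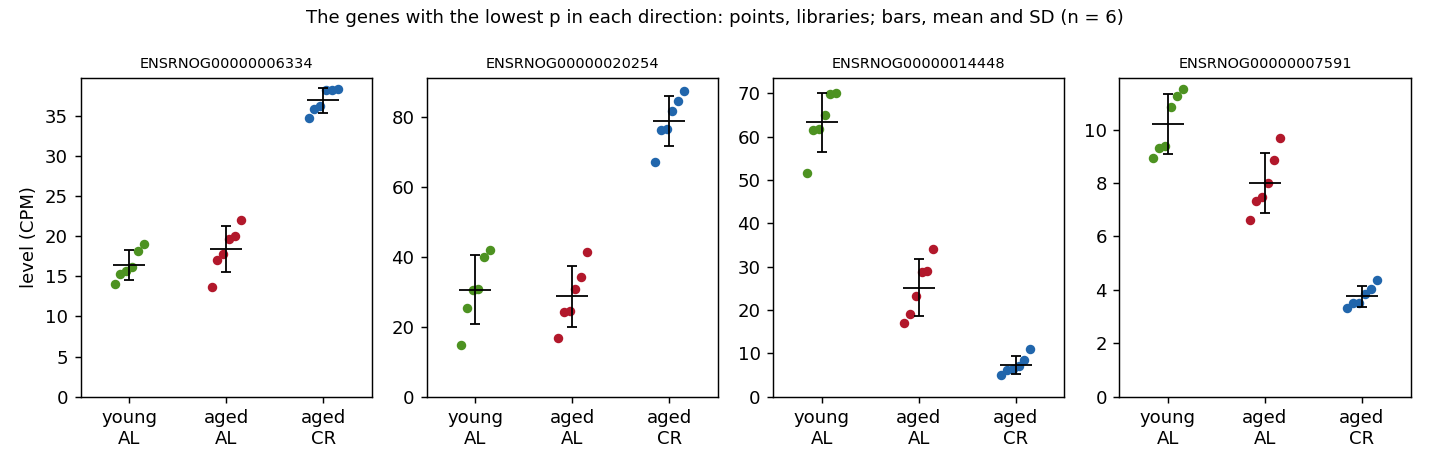
Level in CPM of the 2 genes with the lowest p in each direction, with 1 point per library for young rats fed AL (green), aged rats fed AL (red) and aged CR rats (blue), and black bars for the mean and SD of 6 libraries. The CR points lie wholly above the AL points in the left pair of panels and wholly below them in the right pair.

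The 3 largest falls among called genes were in genes that varied widely among AL rats. These and the other genes described only by position were chosen after their values were seen. The gene on chr2:204231685-204254699 was at 1.44 to 11.1 CPM in aged AL rats, with a median of 5.14, and at 0 to 1.44 CPM in aged CR rats, with a median of 0.36. The lowest AL value, in rat 8, was just above the highest CR value, in rat 14, and young rats had at most 0.75 CPM. The log2 fold change was -3.45 (SE 0.72, adjusted p = 0.0424 in edgeR's quasi-likelihood test). The gene on chr3:60445666-60460724 was at 3.11 CPM in rat 8 and up to 72.9 CPM in rat 11, with an AL median of 35.9, while CR rats had 2.47 to 6.51 CPM. Its groups overlapped through rat 8, and young rats had 3.68 to 12.0 CPM. CR and AL rats differed by -3.22 log2 units (SE 0.56, adjusted p = 0.0183). With 1 library left out, the call of the first gene held in 4 of 12 fits, and that of the second in 10, all but those without library 8826 or library 8827.

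The gene on chr19:561727-564930 also overlapped between groups through rat 8. AL rats had 18.6 CPM in rat 8 to 435.9 CPM in rat 7, with a median of 79.0, and CR rats had 9.42 to 27.2 CPM. Young rats lay between 32.02 and 132.8 CPM. The log2 fold change was -2.94 (SE 0.63, adjusted p = 0.0445 in edgeR's quasi-likelihood test). Its call held in 1 of 12 fits with 1 library left out, the one without rat 8, and its change lay between -3.16 and -2.12. Without both rat 8 and library 8828 it was -3.03 (adjusted p = 0.00974). In these 3 genes rat 8 had the lowest value of the AL group.

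Among called genes outside the mitochondrial genome, the 3 largest rises were at low levels. The gene on chr11:14769010-14774335 had 40 counts in all AL libraries together and 234 in the CR libraries. Its range was 0.10 to 0.51 CPM in AL rats and 0.82 to 2.94 CPM in CR rats, with no overlap (log2 fold change 2.46, SE 0.39, adjusted p = 0.0112 in edgeR's quasi-likelihood test). The gene on chr19:57556694-57592722 had 0.06 to 0.96 CPM in AL rats and 1.09 to 2.91 CPM in CR rats (2.18, SE 0.47, adjusted p = 0.0439 in the same test). A gene of 1 exon and 288 bases on chr2:203106270-203106557 had 0.31 to 3.20 CPM in AL rats and 5.75 to 12.1 CPM in CR rats (2.09, SE 0.39, adjusted p = 0.0248). All 3 rises separated the groups. The first call held in each of 12 fits with 1 library left out, the second in 3 and the third in 6.

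A high fold change alone was not enough for a call. The gene with the highest log2 fold change, 6.60 (SE 1.92), lies on chr2:193778042-193783761 and was not called (adjusted p = 0.116 in edgeR's quasi-likelihood test). It was at 555.2 CPM in rat 14, while the CR median was 1.63 CPM and the highest AL value 2.38 CPM, and without rat 14 its log2 fold change was 0.54. In all, 3 higher and 5 lower genes changed by at least 3 log2 units without being called, against 1 and 2 with a call.

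Called genes were spread over the chromosomes. Every autosome and the X chromosome held at least 1, from 0.162% of the genes tested on chromosome 6 to 1.76% on chromosome 13. Within 100000 bases, 8 pairs of neighbouring called genes were found, and in 7 of them both genes moved the same way. With rat 8 and library 8828 left out there were 60 such pairs among the larger number of calls, 45 with the same direction. Another called gene lay within this distance for 16 of the 130 called genes (12.3%) and for 3.08% of all genes tested, and in the fit without rat 8 and library 8828 for 20.3% of called and 12.3% of tested genes. Among all adjacent tested genes within this distance, 54.2% of 10873 pairs had the same sign. In the fit without rat 8 and library 8828, 53.5% of 10788 such pairs had the same sign. Of the 12 fits that each left out 1 library, some pairs kept their calls in all and others in few.

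On chromosome 17 the genes at 32973695-32990440 and 33028293-33045690, both on the plus strand, rose together. The first was at 54.5 to 91.6 CPM in aged AL rats and 118.8 to 233.6 CPM in aged CR rats, with 110.2 to 246.6 CPM in young rats. The second was at 5.57 to 14.1 CPM in AL rats and 23.6 to 35.5 CPM in CR rats, with 23.7 to 38.3 CPM in young rats. The aged groups did not overlap in either gene, and the range of the young rats covered most of that of the CR rats. The log2 fold changes were 1.18 (SE 0.16) and 1.39 (SE 0.19), both with an adjusted p of 0.00714 in edgeR's quasi-likelihood test. Both calls held in all 12 fits.

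On chromosome 7 the genes at 142817157-142860572 and 142905758-142920216 were higher in CR rats. The first had 26.6 to 57.0 CPM in AL rats and 78.6 to 128.6 CPM in CR rats, with no overlap. The second had 33.0 CPM in rat 8 to 115.9 CPM in rat 11, and 80.9 CPM in library 8828 to 311.0 CPM in rat 14, so its groups overlapped. Young rats had 180.0 to 409.3 CPM of the second gene. Their log2 fold changes were 1.29 (SE 0.19, adjusted p = 0.00783) and 1.51 (SE 0.33, adjusted p = 0.0473) in edgeR's quasi-likelihood test. The first call held in all 12 fits and the second in 3, those without rat 8, rat 11 or library 8828. Another gene on the opposite strand overlaps the span of the first, and whether their exons overlap was not examined. Since the counts do not use strand, reads from any shared exonic bases cannot be told apart.

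On chromosome 10 the genes at 10591251-10629735 and 10644572-10690223, which lie on opposite strands 14836 bases apart, were both higher. The first had 6.77 to 16.8 CPM in AL rats and 25.7 to 38.1 CPM in CR rats, and the second 22.1 to 37.6 and 33.3 to 68.3 CPM. The first separated the groups and the second did not. The log2 fold changes were 1.45 (SE 0.21) and 0.94 (SE 0.18), with calls kept in 12 and 5 of 12 fits. On chromosome 11 the genes at 87058616-87075785 and 87076381-87081950 lie end to end on opposite strands, 595 bases apart, and both separated the groups upwards. The first had 5.28 to 14.2 CPM in AL rats and 15.8 to 39.4 CPM in CR rats, and the second 12.7 to 20.2 and 21.5 to 37.7 CPM. Their calls were kept in 8 and 6 of 12 fits.

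The pair on chromosome 1 at 168957460-168958836 and 168971274-168972725 fell. Both genes are short, with 3 exons and 623 and 660 exonic bases, and another gene of the table overlaps the first on the same strand. The second was abundant, at 423.7 to 681.4 CPM in AL rats and 173.1 to 380.4 CPM in CR rats, and the first was at 24.8 to 44.3 and 9.67 to 23.9 CPM. Neither gene overlapped between the aged groups, and in both rat 11 had the lowest AL value and library 8827 the lowest CR value. Young rats ranged from 231.4 to 912.5 CPM in the second gene and overlapped both aged groups. The log2 fold changes were -1.20 (SE 0.21, adjusted p = 0.0201) and -0.96 (SE 0.21, adjusted p = 0.0483) in edgeR's quasi-likelihood test. The first call was lost without rat 10, rat 12 or rat 14, and the second held in 2 of 12 fits, those without rat 8 or rat 11.

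On chromosome 5, 2 genes of 1 exon lie 216 bases apart on the minus strand, at 150529715-150529928 and 150530145-150530348. The first had 5.28 to 12.998 CPM in AL rats and 1.602 to 4.65 CPM in CR rats, and the second 8.52 to 20.2 and 1.44 to 6.60 CPM. The groups did not overlap in either gene, with log2 fold changes of -1.67 (SE 0.32) and -1.83 (SE 0.32). The first call held in 6 of 12 fits, and the second in 10, all but those without rat 10 or library 8826. Young rats ranged widely, from 2.35 to 20.7 CPM and from 2.85 to 25.5 CPM. The last nuclear pair, on chromosome 1, moved in opposite directions. A gene of 183 bases at 174684259-174684441 fell from 178 to 29 counts over the 6 libraries, and the gene at 174767960-174786361 was at 13.4 to 25.6 CPM in AL rats and 26.3 to 39.2 CPM in CR rats. Another gene overlaps each of them, and the calls held in 10 and 3 of 12 fits.

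The structure of the called genes differed by direction in its medians, which were not tested. Outside the mitochondrial genome, the 49 lower genes had a median span of 14970 bases, a median of 1841 exonic bases and 7 exons. The 79 higher genes had medians of 27954 bases, 2744 exonic bases and 10 exons. All 14154 nuclear genes tested had medians of 20875.5 bases, 2381.5 exonic bases and 9 exons. Genes under 200 exonic bases made up 5 of the lower, 0 of the higher and 179 of all genes tested. With the genes divided by span into 4 bins of equal number, 13 were called higher and 18 lower in the bin of the shortest. In the bins of longer genes these counts were 18 and 10, 27 and 6, and 21 and 15. Without rat 8 and library 8828, the median spans were 14538.5 bases for lower and 23717 bases for higher genes, against 20886 for all tested. In that fit the contrast was smaller in span and by other measures. The median of exonic bases was 2021 for lower and 2740.5 for higher genes, against 2382 for all tested. Lower genes had a median of 7 exons, while higher genes and all genes tested had 9. Genes under 200 bases made up 8 of 258 lower, 1 of 268 higher and 176 of all genes tested.

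A measure of length in the libraries themselves did not separate the groups. The median deviation of the genes in the bin of longest span minus that in the bin of shortest span ranged from -0.12 to 0.18 log2 units in AL rats and from -0.10 to 0.06 in CR rats. The difference of the means was 0.03 (two-sided exact permutation test, p = 0.587, adjusted p = 0.704 over 6 measures). Rat 8 had the highest value of this measure.

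Of the mitochondrial genes 2 were called, both higher in CR rats. The table lists 2 genes at positions 68-1025 and 1094-2664, where mammalian mitochondrial genomes carry their ribosomal RNAs, as well as 13 genes at messenger RNA positions and 22 of the size of transfer RNAs. The files give only identifiers for them, so they are described by position. The first of the ribosomal pair was at 315.9 to 943.7 CPM in aged AL rats, with a median of 425.0, and at 652.5 to 32906 CPM in aged CR rats, with a median of 12669. The second was at 5563 to 8771 CPM in AL rats, with a median of 7051, and at 7479 to 82541 CPM in CR rats, with a median of 42643. In both genes the lowest CR value, in library 8828, lay within the AL range.

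Summed over the pair, rat 14 had 115448 CPM, library 8826 had 92747, library 8827 had 92116, rat 13 had 18872, rat 15 had 15846 and library 8828 had 8131. AL rats had 5879 to 9715 CPM. The CR group thus split into 3 libraries at 92116 CPM or more, 2 between these and the AL range, and 1 within it. Among young rats fed AL, rats 1 and 2 had 34084 and 27981 CPM and the other 4 had 4070 to 8648 CPM. The log2 fold changes were 4.69 (SE 0.91, adjusted p = 0.0292) and 2.60 (SE 0.55, adjusted p = 0.0429) in edgeR's quasi-likelihood test. With 1 library left out the calls held in 4 and 3 of 12 fits, with changes of 4.24 to 4.94 and 2.31 to 2.82. In the fit of 10 libraries, without rat 8 and library 8828, they were 4.83 (adjusted p = 0.00714) and 2.77 (adjusted p = 0.00869). Without rat 14, library 8826 and library 8827 they were 1.48 (adjusted p = 0.510) and 0.84 (adjusted p = 0.636). Ribosomal RNA had been depleted by the authors before sequencing, so the level of these RNAs in the muscle and what the depletion left of them cannot be told apart.

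The share of all counts that fell on the ribosomal pair was 0.66% to 0.98% in AL rats and 0.91% to 10.3% in CR rats. On the log2 scale the groups differed by 2.12 (two-sided exact permutation test, p = 0.00433, adjusted p = 0.0260 over 6 measures). The smallest p that 6 libraries against 6 allow is 0.00216. Both genes are among the 20 with the most counts over the 12 libraries together, the first through its counts in CR libraries. These 20 genes held 35.7% to 36.6% of counts in rat 14 and libraries 8826 and 8827, 26.3% to 28.5% in the other CR libraries and 15.1% to 29.6% in AL rats. Without the pair, the other 18 genes held 26.3% to 27.9% in these 3 libraries, 24.4% to 26.9% in the other CR libraries and 14.3% to 28.9% in AL rats. With rat 14, library 8826 and library 8827 left out, edgeR's quasi-likelihood test called 0 genes of 14826 at 6 libraries against 3, and 895 had an unadjusted p under 0.05. All 130 genes had the same sign there, in libraries that were also used to call them. With all mitochondrial genes left out of the table, 127 genes were called, 78 higher and 49 lower, and with only the ribosomal pair left out 113 were called, 67 higher and 46 lower. All of these were among the 130.

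The 13 genes at messenger RNA positions, where mammalian mitochondrial genomes encode subunits of the respiratory chain and of ATP synthase, went the other way in value without passing the test. All 13 had a negative log2 fold change, from -0.94 to -0.31 with a median of -0.53, and 0 were called by edgeR's quasi-likelihood test (adjusted p from 0.0840 to 0.601). With 1 library left out this median lay between -0.73 and -0.39, and without rat 14, library 8826 and library 8827 it was -0.84. In the fit of 12 libraries an unadjusted p under 0.05 was found for 7 of the 13, and for 14.5% of all 14177 genes tested. All but the gene at 13543-14061 lie on the plus strand and share their transcripts, so the 13 genes are not independent. Their summed level was 15561 CPM in rat 8, 29161 to 34536 CPM in 4 AL rats and 57072 CPM in rat 11. In CR rats it was 14068 CPM in library 8828 and 21734 to 28919 CPM in the others. The groups overlapped through rat 8 alone. Young rats had 22966 to 51756 CPM.

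As a share of all counts these messenger positions held 2.23% to 5.88% in AL rats and 1.57% to 2.78% in CR rats. The difference was -0.58 on the log2 scale (two-sided exact permutation test, p = 0.0238, adjusted p = 0.0714 over 6 measures). With 1 library left out it lay between -0.70 and -0.42. The adjusted p was at most 0.05 only without rat 8 (0.0130), and the other 11 such tests did not pass, with an adjusted p of up to 0.143 in the same exact permutation test. Without rat 8 and library 8828, the log2 fold changes of the 13 genes ran from -0.89 to -0.36, with 1 called lower and 10 with an unadjusted p under 0.05, as 3289 of all 14100 genes (23.3%) had in that fit. Of the 22 genes of transfer RNA size 8 were tested in the fit of 12 libraries, and all 8 had negative values, from -0.90 to -0.41. Of these 8 genes 0 were called and 4 had an unadjusted p under 0.05, as 14.5% of all genes tested had in that fit.

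**Figure D4:**
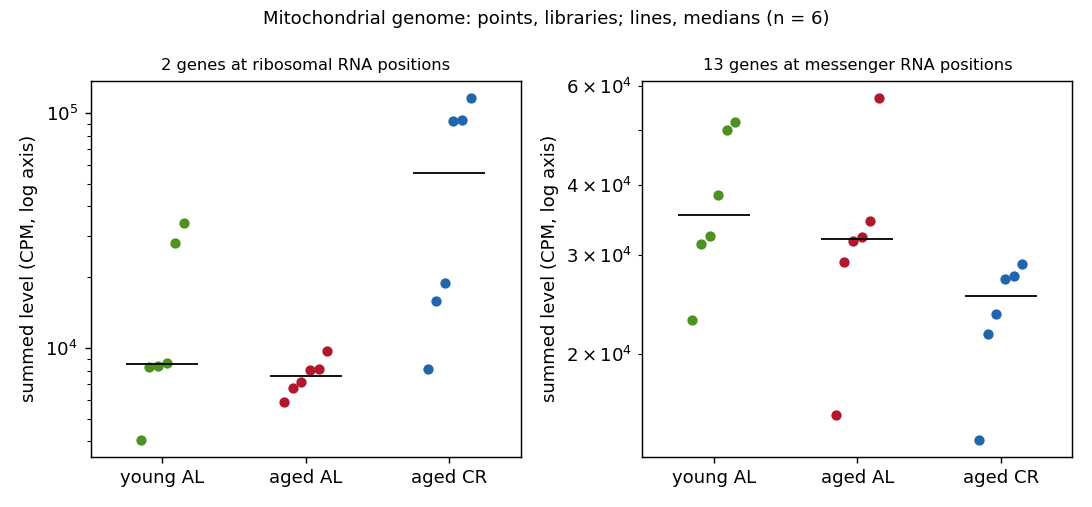
Summed CPM on a log axis for the 2 mitochondrial genes at ribosomal RNA positions (left) and the 13 at messenger RNA positions (right), with 1 point per library and a line at the median of 6. In the left panel 3 CR libraries reach 92116 to 115448 CPM while library 8828 lies within the AL range at 8131 CPM, and in the right panel the CR libraries lie at 14068 to 28919 CPM.

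Each library was also compared with genes chosen without it. For every library in turn the genes were called from the other 11, leaving out up to 3 that were not among the 14177 tested in all 12, and its value of each such gene was placed on a scale from 0 at the mean of the AL libraries to 1 at the mean of the CR libraries. Among CR libraries the median position was 1.14 in library 8826, 1.12 in library 8827, 0.86 in rat 14, 0.83 in rat 13, 0.82 in rat 15 and 0.51 in library 8828. Among AL libraries it was -0.04 in rat 7, 0.07 in rat 9, 0.09 in rat 10, 0.23 in rat 12, 0.32 in rat 11 and 0.57 in rat 8. The libraries kept the order of the diets apart from rat 8, which lay above library 8828.

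The share of these genes that lay on the side of the library's own diet was 100% of 40 genes in library 8826 and 94.4% of 54 in library 8827. It was 80.9% to 90.0% in rats 13, 14 and 15. In AL rats it was 69.6% of 102 genes in rat 11 and 85.5% to 94.1% in rats 7, 9, 10 and 12. Rat 8 had 48.1% of 343 genes on the AL side, and library 8828 had 50.9% of 216 on the CR side. The genes differ between libraries, since each list left another library out.

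**Figure D5:**
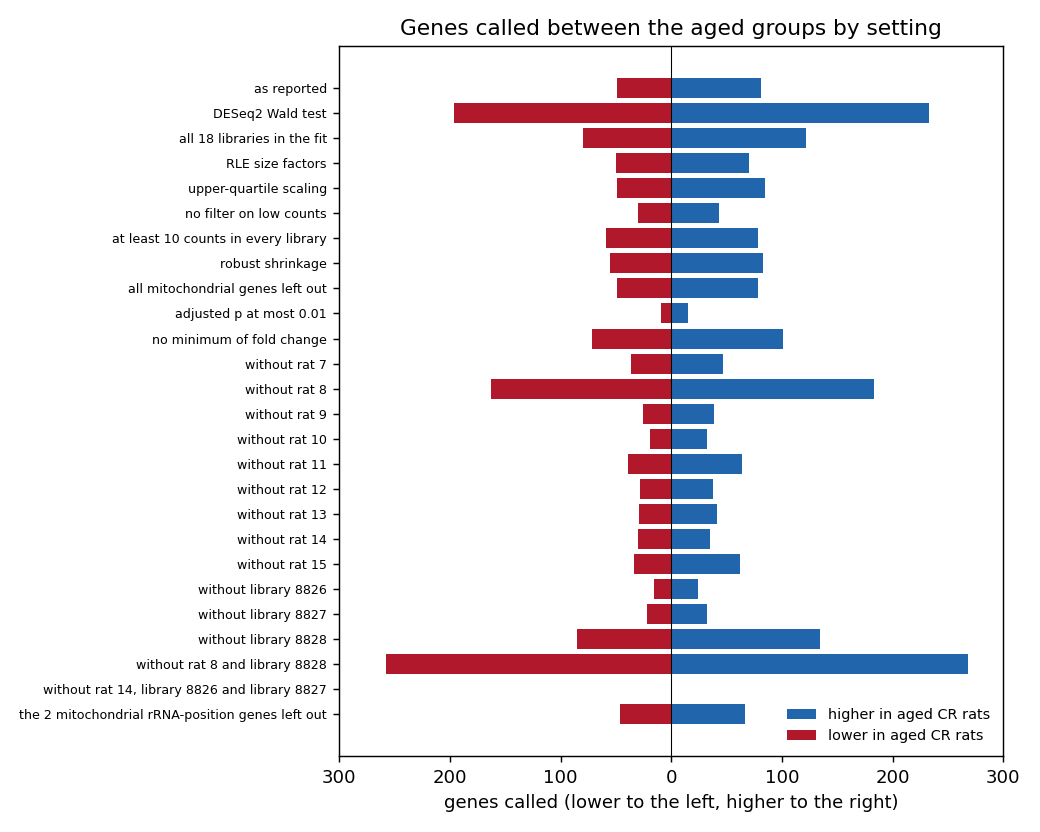
Number of genes called higher (blue, to the right) and lower (red, to the left) in aged CR rats for the fit as reported and each of 25 alternatives. The total of 130 as reported lies between 0 without rat 14, library 8826 and library 8827 and 526 without rat 8 and library 8828.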

How the data were processed

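RNA-seq was made from the gastrocnemius of 18 rats. After depletion of ribosomal RNA and a strand-specific preparation, the authors trimmed reads with Cutadapt 1.2.1, aligned them with STAR 2.3.0e to Rnor_6.0 and counted them on annotation release 96 with featureCounts 1.6.4. The deposited values are these raw counts per gene and library, not normalized. As the head of the table gives the command, pairs of reads were counted without a strand option, so reads of a gene and of an antisense partner cannot be told apart. The authors' table also gives position and length of each gene, in bases and as another kind of value than counts.

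Groups came from the sample labels. The computations used R 4.3.3 and edgeR 4.0.16, with filterByExpr, TMM factors and the quasi-likelihood test on the 12 aged libraries. A standard error is the size of the log2 fold change over the root of its F statistic. Printed CPM use TMM factors over 18 libraries, and log2 CPM have a prior count of 2. Of the 32883 genes, 4679 had no count in the 12 libraries. Library measures were compared by two-sided exact permutation tests. Alternatives were DESeq2 1.42.0, all 18 libraries, other scalings, filters and thresholds, robust shrinkage, and leaving out libraries. On simulated counts of these libraries with 14039 genes tested, 56.1% of 2-fold and 85.3% of 4-fold changes were called. Of the 141 calls 5 were unchanged genes. The simulated counts were drawn independently for each gene, with no component shared among genes like the first one of the real libraries. These shares therefore need not hold for the calls on the real counts.

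The members and lists were chosen with earlier results of these data known. The named genes are the 2 with the lowest p in each direction. None of the table's identifiers matched the list of genes at hand, so gene lists, cell type markers and promoter motifs were not analysed here, and genes were not restricted to protein-coding ones. Each group has its own block of library numbers, so that handling, if it followed these blocks, and diet cannot be told apart.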

Additional observations from a re-analysis of the deposited data

Results flagged for a closer look

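In 76 sets of 6 libraries (library measures, components and the features described above, by group), 8 had a highest or lowest library whose gap to the nearest other exceeded the share of the range that Dixon's 95% limit allows. Chance alone passes about 1 in 20 sets of this size, but the sets share libraries and some genes were chosen for their values, so no chance count applies to these 8. On the first component rat 8 stood at 98.5 against -29.7 to -0.42 in the other AL libraries, a gap of 0.772 of the range. Library 8828 stood at 65.1 on the same component against -31.0 to -2.58 in the other CR libraries, a gap of 0.704. On the second component rat 11 stood at 5.42 against -33.1 to -19.8 in the other AL libraries, a gap of 0.654. In the number of genes with a count, rat 15 had 19671 against 20486 to 20925 in the other CR libraries, a gap of 0.650. For the gene on chromosome 1 from 168957460, rat 11 had 24.8 CPM against 37.7 to 44.3 in the other AL libraries, a gap of 0.664. The gene on chromosome 19 from 561727 was at 435.9 CPM in rat 7 against 18.6 to 156.7 in the other AL libraries, a gap of 0.669. The uncalled gene on chromosome 2 from 193778042 was at 555.2 CPM in rat 14 against 0.48 to 2.27 in the other CR libraries, a gap of 0.997, and at 2.38 CPM in rat 9 against 0.28 to 1.01 in the other AL libraries, a gap of 0.650.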

How the results depend on the processing

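No paired analysis was possible because the aged groups share no replicate numbers. Against 130 genes called (81 higher, 49 lower), DESeq2 called 429 (233, 196), all 18 libraries in the fit 202 (122, 80), no filter on low counts 73 (43, 30) and an adjusted p of at most 0.01 24 (15, 9). Leaving out 1 library at a time gave 40 to 346 calls, 24 to 183 higher and 16 to 163 lower. The totals moved by over 1.5 times without rat 7 (83), rat 8 (346), rat 9 (65), rat 10 (51), rat 12 (66), rat 13 (70), rat 14 (65), library 8826 (40), library 8827 (54) and library 8828 (219). Without rat 8 and library 8828 there were 526 (268, 258). Added after the data were seen, leaving out rat 14, library 8826 and library 8827 gave 0 (0 higher, 0 lower), with fewer samples as well, and the cause was not tested.

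The calls of the 4 named genes held in 24 of 25 alternatives, the exception being that last one, where their adjusted p was 0.174 to 0.230 with the same signs. The gene on chromosome 2 from 193778042 was called in 1 alternative, all 18 libraries in the fit. The ribosomal pair was called in 13 and 11 of the 23 alternatives that kept it, and without those 3 libraries its log2 fold changes were 1.48 and 0.84. No log2 fold change of the genes described by position changed sign in the alternatives that kept them. The difference in the share on the ribosomal pair ranged from 1.82 to 2.52 without 1 library, and its adjusted p rose to between 0.0519 and 0.104 when an AL library was left out. The difference in the share on the messenger positions ranged from -0.70 to -0.42 and passed only without rat 8, not in the other 11 tests. The difference in genes detected, -119, ranged from -323 to 250.3 and became positive without rat 8 (250.3) and without rat 15 (56.7). Genes under 1 CPM had a median standard error of 0.40, which limits what could be called there.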
